A study of Mus musculus with 28 samples.

Results

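The livers of 4 male C57BL/6 mice aged 24 months were compared with those of 4 male C57BL/6 mice aged 6 months, which together are 8 of the 28 arrays of a series on drug-metabolizing genes in mouse liver through life. The members are all 18193 genes for which the array carries a probe set with that symbol alone, so none was left in or out for its values. The gene lists used below were drawn up with earlier results of these data known. Their counts beside the shares of all genes are therefore a description and not independent support. The strain is given as C57BL/6 and, in the design text, as C57Bl6/J. No allele or agent is named for either age; all animals were bought in at about their stated age, ate the same Purina chow and were killed with CO2. The labels name 1 mouse per array, so the p-values measure the spread between animals, and the RNA came from the frozen remainder of each liver after pieces of the left and median lobes had been fixed. The 4 arrays of 12 months and the 4 of 18 months, also from untreated male C57BL/6 mice, entered the fit to share its estimate of the spread, and their values are given beside the comparison where they show how a gene lay at the ages between.

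The 24 month animals are numbered apart from all others. The 6 month animals are numbered 2, 11, 16 and 21, which interleave with the numbers of the 12 and 18 month animals (3 to 19), whereas the 24 month animals are 25, 29, 33 and 34. Their arrays were also brighter. Mean deposited intensity was 227 to 269 on the 6 month arrays and 275 to 295 on the 24 month arrays, a ratio of means of 1.18, and the ranges did not overlap (exact permutation test, two-sided, p = 0.0286, the smallest that 4 against 4 allows with 70 arrangements). The ratio of the 3 prime to the 5 prime Gapdh control probe sets, a measure of RNA integrity and labelling, did not overlap either, at 0.879 to 0.947 on the 6 month arrays and 0.824 to 0.845 on the 24 month arrays (exact permutation p = 0.0286). Values below are normalized intensities, made comparable between the 16 C57BL/6 arrays by quantile normalization, and a value above 52.6 is called above background. By that bound 50.0% to 51.0% of genes were above background at 6 months and 50.2% to 50.9% at 24 months (exact permutation p = 0.543). Age, animal numbering, brightness and this ratio move together in these 8 arrays, and their parts in the results cannot be told apart by the design.

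**Figure D1:**
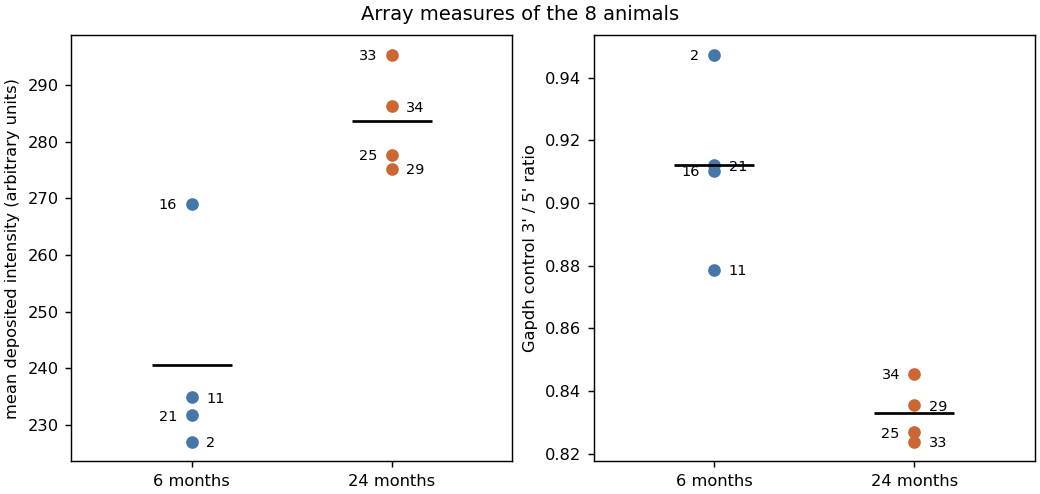
Mean deposited intensity (arbitrary units, left) and Gapdh 3 prime to 5 prime ratio (right) of the 8 arrays, each point 1 array with its animal number and each line the group mean; neither axis starts at 0. The 24 month arrays lie above the 6 month arrays in intensity (275 to 295 against 227 to 269) and below them in the ratio.

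The liver takes up, oxidizes, conjugates and exports foreign compounds, makes most plasma proteins, and answers inflammatory cytokines such as interleukin 6 by raising a set of secreted acute phase proteins. Many of its metabolic genes also follow the daily clock, in which the activators Clock, Npas2 and Arntl drive the Per, Cry and Nr1d genes that in turn repress them. The organ is a mixture of hepatocytes with resident macrophages (Kupffer cells), endothelial and stellate cells and lymphocytes, and in RNA from whole tissue more cells of a type and more RNA per cell cannot be told apart. The labelled tissue fitted its defining markers: the 48 measured genes of a plasma protein list were above background on all 8 arrays, and albumin (Alb) lay between 11240 and 12179 at 6 months and between 9915 and 11105 at 24 months.

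In liver of 24 months, 112 genes were higher and 121 lower than at 6 months out of the 18193 tested (limma, Benjamini-Hochberg adjusted p under 0.05 over all genes), which is 1.28% of all genes, 0.616% that rose and 0.665% that fell. All 233 had 4 values at 24 months that lay wholly above or wholly below the 4 at 6 months, a separation seen in 10.2% of all genes (4.71% above and 5.44% below). Differences and folds are on the scale of log2(intensity + 16), which understates changes of dim genes, with 24 minus 6 months as the sign. They were mostly small: 23 of the genes that rose and 13 of those that fell changed at least 2-fold, and the median size was 0.49 on the log2 scale. Of the 233, 23 were above background in neither group. The median log2 difference was -0.0071 over all genes and -0.029 over the 9712 genes above background on 4 or more of the 16 arrays. Gene lists below are set beside the former, although many of them hold mostly bright genes. By fitted difference the largest rise was that of Ighm and the largest fall that of Ces2b. The count depended on how the spread was estimated, on covariates and on single animals. It was 2 when the 8 arrays were fitted without the other ages. With array brightness as a covariate it was 99, and with the Gapdh ratio as a covariate 0 (limma, lowest adjusted p = 0.0605, with 2321 genes at an unadjusted p under 0.05 against 3139 in the reported fit). Neither covariate overlapped between the age groups, so including either also changes the fitted age difference. Leaving out 1 animal gave from 42 genes (without 24 month animal 33) to 553 (without 24 month animal 34), and 106, 58, 96, 79 and 124 without 6 month animals 11, 16 and 21 and 24 month animals 25 and 29, in that order.

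All 233 differences kept their sign in each of the 8 refits that left out 1 animal. Groups that do not overlap all but ensure this, so it is no measure of stability. In these refits 35 genes (21 that rose and 14 that fell) kept their adjusted p under 0.05 in all 8. They hold Ighm, Fgl1, Cdh19, Ifi27, Cd9, Mmp14, Abcc9, Fgfr4, Itih4, Ddx58, Ces2b, Acsm3 and Cyp2j6, which are described with their groups, and others that were chosen for mention after their values were seen. Among these, Trim30d, an interferon-inducible relative of TRIM30, measured 81.1, 72.1, 83.6 and 84.8 at 6 months and 295, 168, 255 and 151 at 24 months (log2 difference 1.23, adjusted p = 0.00772). Shfl, an interferon-induced inhibitor of viral frameshifting, differed by 0.90 and the neighbouring membrane protein genes Tmem176a and Tmem176b by 0.87 and 0.75, and in each of them the groups stood clear of each other. Ndrg1, a stress- and hypoxia-responsive gene, rose from 107 to 166 at 6 months to 255 to 318 at 24 months. Among the genes that fell were the nucleolar Gnl3 by 0.47 and Nop10, a part of the pseudouridylation complex, by 0.25, the pseudouridine synthase Pus10 by 0.45 and Gemin2 of the SMN complex by 0.63. Mtf1, the metal-responsive activator of metallothionein genes, was 204, 235, 216 and 248 at 6 months and 130, 143, 108 and 125 at 24 months on the probe set used (log2 difference -0.76, adjusted p = 0.00513), although the median over its 5 probe sets turned to 0.10. With the median over all probe sets of a gene the calls of Ighm, Abcc9, Fgfr4 and Nop10 were lost too. Under array median scaling those of Abcc9, Fgfr4, Itih4, Ddx58, Nop10 and Tmem176a were lost.

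**Figure D2:**
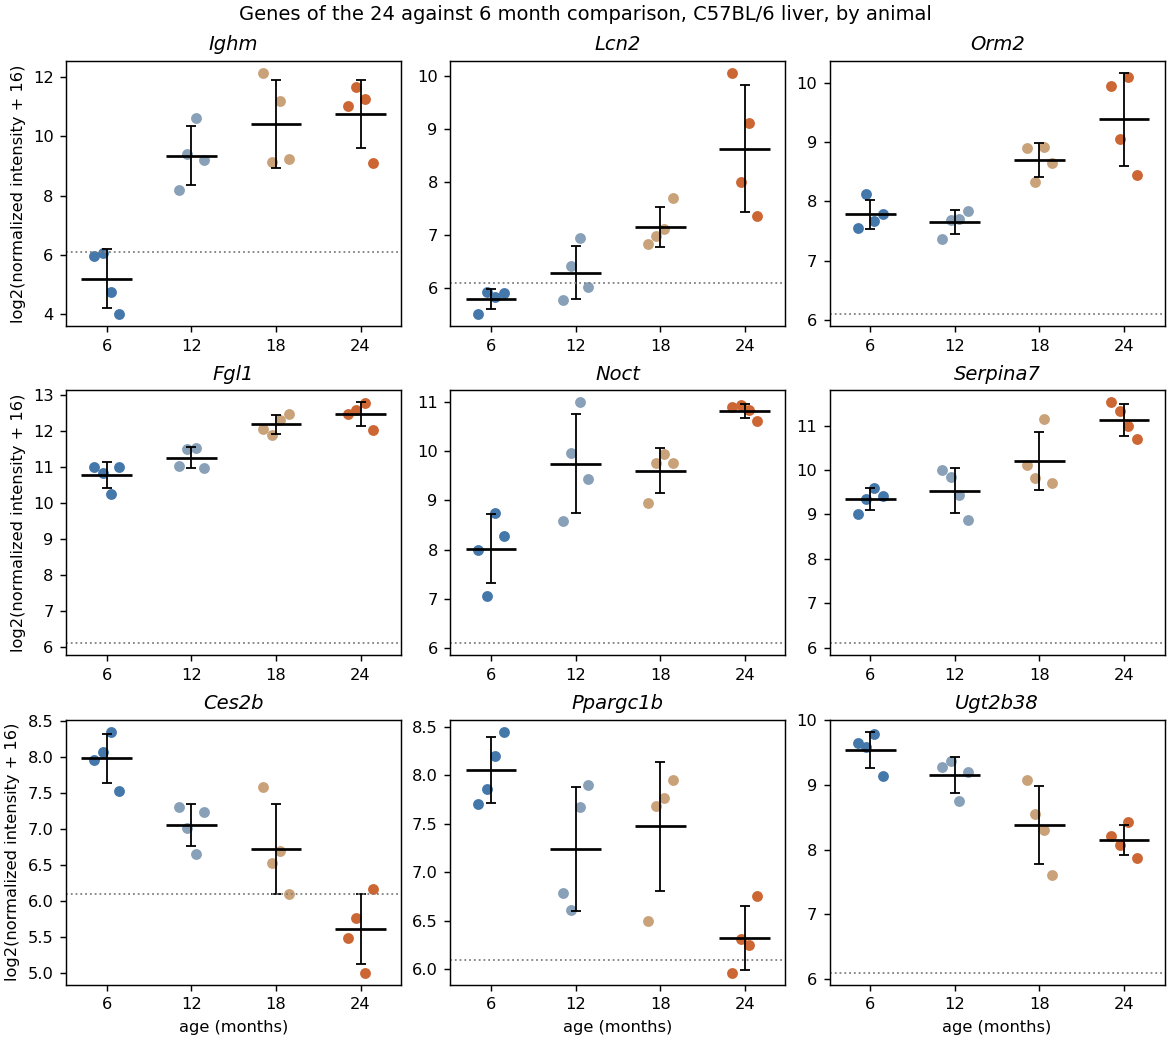
Normalized level of 9 genes on the log2(intensity + 16) scale in each C57BL/6 animal by age in months; bars give the mean and SD of 4 animals, axes start above 0, and the dotted line is the background bound. At 24 months Ighm, Lcn2, Orm2, Fgl1, Noct and Serpina7 lie above, and Ces2b, Ppargc1b and Ugt2b38 below, every 6 month animal.

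Ighm encodes the heavy chain of immunoglobulin M, the first antibody class a B cell makes. Its normalized intensities were 46.1, 51.1, 10.9 and 0 in the 4 animals of 6 months and 2051, 3228, 2445 and 531 in those of 24 months. None of the 6 month values exceeded the background bound of 52.6 and all of the 24 month values did, so the level was at least 25.3-fold higher (log2 difference 5.57 ± 0.80 (SE), limma adjusted p = 0.00798). It already measured 273 to 1563 at 12 months and 548 to 4486 at 18 months. Of the 11 probe sets with this symbol, 6 were above background; their log2 differences were all positive and the median over all 11 was 0.56, with no call.

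The kappa light chain variable genes Igkv8-30 and Igkv5-39 rose as well. Igkv8-30 went from 112, 80.8, 90.3 and 90.4 to 899, 1797, 1582 and 341 (log2 difference 3.18, adjusted p = 0.0255), and Igkv5-39 from 0.0696 to 10.1 at 6 months, all below background, to 17.9 to 100 at 24 months (1.70, adjusted p = 0.0469). Of 13 measured kappa variable genes 10 were positive, and such segments resemble each other, so a probe set may report more than 1 of them. The calls of both genes were lost without 6 month animals 11, 16 or 21 or 24 month animals 29 or 33, that of Igkv8-30 also without 24 month animal 25 and that of Igkv5-39 without 6 month animal 2 or 24 month animal 34, with adjusted p up to 0.0867 and 0.131.

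Of the 32 measured genes of a list for B and plasma cells, Ighm was the only one that passed (1 of 32 beside 0.616% of all genes that rose), 23 were positive, and the median log2 difference was 0.29 beside -0.0071 over all genes. Jchain, which joins IgM pentamers, measured 74.1, 75.1, 64.4 and 59.1 at 6 months and 357, 722, 380 and 155 at 24 months without passing (adjusted p = 0.0578). The B cell surface genes Cd79a and Ms4a1 differed by 0.58 and 0.35 and the plasma cell regulators Prdm1 and Xbp1 by 0.47 and -0.07, and none passed. Igkc, the kappa constant region, is outside the list because its probe sets carry several symbols. Those shared with Igkv8-30 and other kappa segments, fitted apart by limma, were higher by 3.04, 2.86 and 3.29 (adjusted p = 0.0207, 0.024 and 0.0252).

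Acute phase genes were the list with the most rises: 7 of 38 measured members passed and rose (Lcn2, Fgl1, Orm2, Apcs, Stat3, Itih4 and Hp), 0 fell, and 30 were positive with a median of 0.20. The background is 0.616% of all genes that rose and a median of -0.0071. Lcn2, the siderophore-binding lipocalin 2 that liver and neutrophils release in inflammation, measured 29.6, 44.5, 41.3 and 43.8 at 6 months and 1049, 239, 541 and 147 at 24 months. All 6 month values lay below the background bound, and the level was at least 5.78-fold higher (log2 difference 2.84 ± 0.47, adjusted p = 0.0175). Fgl1, a fibrinogen-like protein secreted by hepatocytes, rose 3.23-fold from 2040, 1818, 1190 and 2028 to 5694, 6080, 7030 and 4131 (log2 difference 1.69 ± 0.21, adjusted p = 0.00513).

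Orm2, which encodes the plasma carrier orosomucoid 2, measured 171, 263, 188 and 204 at 6 months and 968, 515, 1079 and 331 at 24 months, a 3.03-fold rise (adjusted p = 0.0298). Apcs, serum amyloid P, rose 2.18-fold (975 to 1338 against 1498 to 3681, adjusted p = 0.0374). Stat3, the transcription factor that relays interleukin 6, rose 1.69-fold from 605 to 689 to 922 to 1434 (adjusted p = 0.0189), while the shared cytokine receptor subunit Il6st, named after its value was seen, rose 1.31-fold (adjusted p = 0.04). Itih4, an inter-alpha-trypsin inhibitor heavy chain, and Hp, haptoglobin, rose 1.40-fold (7548 to 8474 against 10375 to 12711) and 1.20-fold (8137 to 8698 against 9234 to 10639). In all 7 genes the 24 month animals stood above the 6 month animals without overlap. Animal 34 had the lowest value of the 24 month group in each of the 7.

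The serum amyloid A genes, classical acute phase reactants, had their highest values in animal 25. Saa2 measured 222, 303, 170 and 222 at 6 months and 2006, 485, 774 and 365 at 24 months, and Saa3 104, 85.7, 129 and 140 against 988, 153, 209 and 150, the first value of each old group being animal 25; neither passed (adjusted p = 0.0622 and 0.217). S100a8, a neutrophil calcium-binding protein, rose from 42.4, 36.5, 14.2 and 44.3 to 305, 160, 117 and 77.3, at least 2.37-fold (adjusted p = 0.0302). Its partner S100a9 was 23.4 to 46.0 against 59.9 to 210 (adjusted p = 0.0622). Of 20 measured neutrophil genes, Lcn2 and S100a8 were the 2 that passed, beside 0.616% of all genes that rose.

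Most of these calls depended on single animals. Fgl1 and Itih4 kept theirs in all 8 refits, Lcn2 lost it only without 24 month animal 33 (adjusted p = 0.0624) and Stat3 only without 6 month animal 16 (0.058). Orm2 lost it without 6 month animals 2, 16 or 21 or 24 month animals 25 or 33 (up to 0.0867), Hp without 6 month animals 16 or 21 or 24 month animals 25 or 33 (up to 0.0641), and Apcs, S100a8 and Il6st in most refits: Apcs and Il6st without any animal but 24 month animal 34 (up to 0.105 and 0.117), S100a8 without any animal but 6 month animal 2 and 24 month animal 34 (up to 0.0852). The list then held 3 rises without 6 month animal 16 or 24 month animal 33, 4 without 6 month animal 21 or 24 month animal 25, and 15 without 24 month animal 34. In that last refit 553 of all genes passed. Under scaling by array medians 3 rises were left (Fgl1, Lcn2 and Orm2), the list median was -0.07 with 18 members positive, and Hp turned to -0.10.

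STAT3, which relays interleukin 6 in hepatocytes, binds a palindrome of the form TTCNNNGAA, so the promoters of the genes that rose were searched for it on both strands. In RefSeq windows of GRCm38.p6, from 250 bases before to 50 after a gene's start, this palindrome occurred in 8 of the 30 acute phase genes that had a window (Fga, Fgb, Apcs, Itih4, Hamp, Hamp2, Steap4 and Socs3) and in 9.55% of all genes with one. A kappa B form occurred in 3 of the 30 (Serpina3n, Steap4 and Il1rn) and in 1.89% of all genes. Of the 7 genes that rose, 5 had a window and 2 held the palindrome. Both are shown 5′ to 3′ on the gene's strand, Apcs at chr1:172895005-172895304 (minus strand) and Itih4 at chr14:30886226-30886525 (plus strand), with the palindrome in capitals; a match describes letters and not binding.
Apcs: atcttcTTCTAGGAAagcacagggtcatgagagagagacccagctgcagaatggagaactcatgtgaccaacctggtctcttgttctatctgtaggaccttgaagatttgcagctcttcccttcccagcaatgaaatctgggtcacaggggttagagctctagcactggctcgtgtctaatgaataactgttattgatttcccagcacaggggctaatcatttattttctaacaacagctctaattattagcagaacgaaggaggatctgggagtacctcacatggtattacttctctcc
Itih4: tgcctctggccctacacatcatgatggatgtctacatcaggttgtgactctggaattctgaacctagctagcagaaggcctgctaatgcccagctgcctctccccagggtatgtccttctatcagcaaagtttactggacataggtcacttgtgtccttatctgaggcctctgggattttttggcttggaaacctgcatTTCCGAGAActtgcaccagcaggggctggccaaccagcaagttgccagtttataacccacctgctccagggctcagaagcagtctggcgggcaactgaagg

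Of 43 measured interferon-responsive genes 3 rose (Ly6e, Ifi27 and Ddx58), beside 0.616% of all genes, and 0 fell. The other 40 did not pass; 41 of the 43 were positive, with a median of 0.67 beside -0.0071 over all genes. Ifi27 measured 785, 898, 790 and 833 at 6 months and 2462, 1515, 1747 and 1663 at 24 months (2.18-fold, log2 difference 1.12 ± 0.17, adjusted p = 0.0102). Ly6e, a membrane protein induced by interferon, rose 2.40-fold from 1779 to 2403 to 3573 to 7881 (adjusted p = 0.0197). Ddx58, which encodes the viral RNA sensor RIG-I, was 204, 220, 191 and 217 against 313, 272, 336 and 267 (1.39-fold, adjusted p = 0.0133). Irf7, the factor that amplifies type I interferon, was 155 to 186 against 264 to 879 and did not pass (adjusted p = 0.0598).

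The highest interferon values belonged to animal 25 (median level of the list 8.79 on the log2 scale, against 7.35 to 8.11 in the other 24 month animals and 6.93 to 7.25 at 6 months). Without animal 25 the list median was 0.39 and the same 3 genes passed. Ifi27 and Ddx58 kept their calls in every refit and Ly6e lost its call without 6 month animal 16 or 24 month animal 33 (limma adjusted p up to 0.0692). Without 24 month animal 34, 11 members passed, in a refit in which 553 of all genes passed. A core form of the interferon-stimulated response element was searched on both strands: 17 of 30 list genes with a window held it, and 3.99% of all genes. Ddx58, the 1 gene of the 3 that had a window, is shown for its match in capitals, at chr4:40239776-40240075 (minus strand).
Ddx58: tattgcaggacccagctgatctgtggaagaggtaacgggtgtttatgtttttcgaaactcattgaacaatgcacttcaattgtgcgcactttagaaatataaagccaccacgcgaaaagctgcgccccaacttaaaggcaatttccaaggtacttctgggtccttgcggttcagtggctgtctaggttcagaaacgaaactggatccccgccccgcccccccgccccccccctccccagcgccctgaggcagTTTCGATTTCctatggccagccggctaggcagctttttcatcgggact

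Antigen presentation and complement genes gave few calls. Of all genes, 0.616% rose and 0.665% fell. Of 19 genes of MHC class I and the immunoproteasome all were positive, with a median of 0.26 (0.13 without animal 25), but only Tapbp, the peptide-loading chaperone tapasin, passed (733 to 905 against 1020 to 1705, 1.56-fold, adjusted p = 0.0415). Under array median scaling 12 of the 19 were positive. Of 26 complement genes, C4bp, an inhibitor of the classical pathway, rose 1.27-fold (adjusted p = 0.0453) and C9, the pore-forming terminal component, fell 1.22-fold (7351, 7236, 7066 and 6941 to 6080, 5902, 5983 and 5387, adjusted p = 0.038). Over the alternative settings the difference of C4bp came as near 0 as 0.010. Its call was lost under array median and trimmed mean scaling and with the median over all probe sets of a gene. Of 42 chemokine and adhesion genes, Cxcl11 passed at a low level (39.6 to 67.5 against 70.5 to 96.1, limma adjusted p = 0.0389). Each of these 4 calls was lost without any of 6 month animals 2, 11 or 16 or 24 month animals 25 or 33, with limma adjusted p up to 0.121, 0.128, 0.0912 and 0.104. Probe sets with several symbols are outside these lists and were fitted apart by limma. Among them, that of H2-Q6, H2-Q8 and H2-Q4 was higher by 0.91 (adjusted p = 0.0313) and that of C4a and C4b by 0.37 (adjusted p = 0.0207).

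Macrophage genes lay higher in the old livers, but few passed gene by gene. Of 37 measured genes of Kupffer cells and macrophages 35 were positive with a median of 1.02, and 17 did not overlap between the groups in that direction (4.71% of all genes). By the test 2 rose, beside 0.616% of all genes: Cd9, a tetraspanin, and Mmp12, the macrophage elastase. Cd9 measured 184, 169, 156 and 184 against 371, 341, 402 and 250 (1.87-fold, adjusted p = 0.00513) and kept its call in all 8 refits. Mmp12 stayed below background in both groups and lost its call in all refits but that without 24 month animal 34 (adjusted p up to 0.104).

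The spread among the 24 month animals was wide. Vsig4, the Kupffer cell complement receptor, was 779, 606, 608 and 677 at 6 months and 4013, 1166, 2294 and 927 in animals 25, 29, 33 and 34 (adjusted p = 0.0727). Clec4f, which marks resident Kupffer cells in mice, was 722 to 943 against 3609, 1097, 1854 and 873, and Adgre1, the F4/80 antigen, 228 to 278 against 1477, 351, 591 and 259; in both the groups overlapped through animal 34. Cd68, Mpeg1 and C1qa, chosen with these after their values were seen, followed the same order of animals, and none passed (adjusted p = 0.0926, 0.0727 and 0.12). Without animal 34, 17 genes of the list passed, in a refit in which 553 of all genes passed. Without animal 25 the median was 0.68 and Cd9 alone passed.

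Animal 25 also stood apart on lymphocyte and proliferation genes. Summed intensity over the 36 T and NK cell genes was 711 to 782 at 6 months and 3508 in animal 25, against 776 to 950 in the other animals of 24 months, and the T cell receptor subunit Cd3e reached the background bound in animal 25 only (53.7; the other 7 arrays read 0 to 14.5). Ccl5, a chemokine of T and NK cells, was 2.23 to 23.8 at 6 months and 1266, 28.2, 82.4 and 35 at 24 months. The proliferation gene Top2a was 7.40 to 14.1 against 170, 16.4, 41.1 and 18.4, and the median level of 48 proliferation genes was 6.28 in animal 25 and 5.11 to 5.42 in the other 7. None of the T and NK cell, MHC class II or proliferation genes passed (limma; 9 of 36, 11 of 22 and 6 of 48 had an unadjusted p under 0.05). The T and NK cell median of 0.34 was 0.07 without animal 25, and that of the proliferation list went from 0.17 to -0.04. The part of these cells in the rises of immune genes was not tested.

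**Figure D3:**
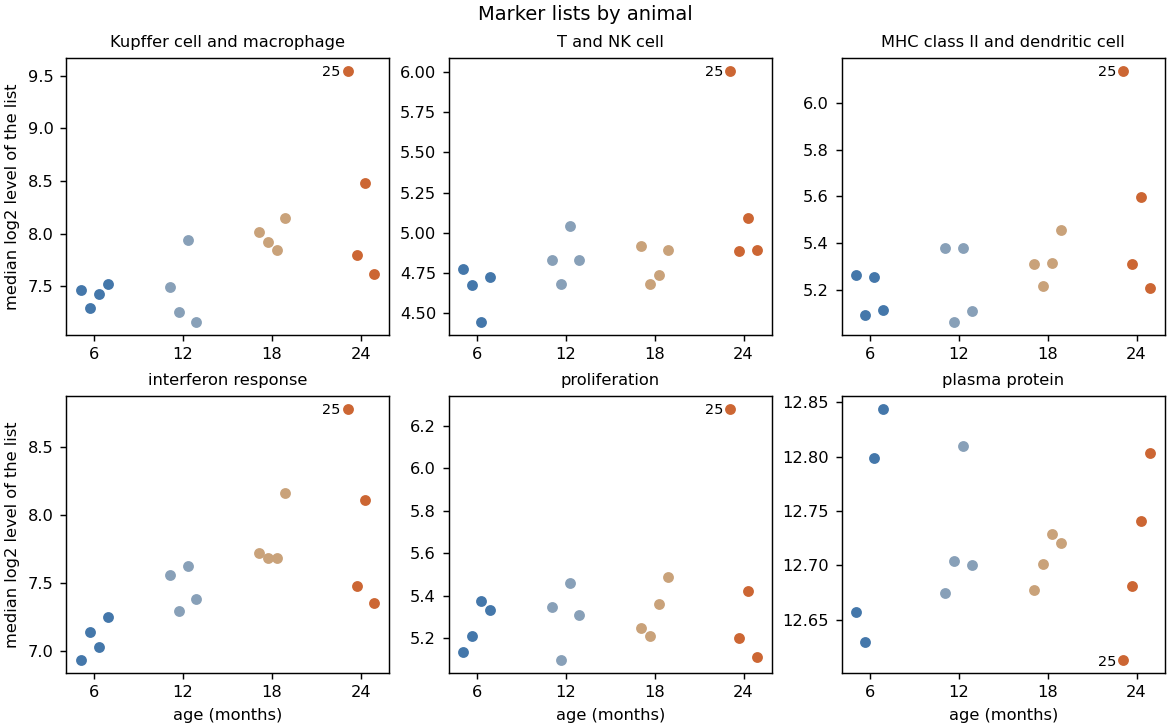
Median log2(intensity + 16) of 6 gene lists in each C57BL/6 animal by age in months; each point is 1 animal, axes start above 0, and 24 month animal 25 is marked. Animal 25 is highest on the 3 leukocyte lists, on interferon response (8.79) and on proliferation (6.28), while the plasma protein list lies between 12.6 and 12.8 in all 16 animals.

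Enzymes that metabolize foreign compounds, the subject of the series, gave few calls, and every one of them among the phase I and phase II enzymes was a fall. Ces2b, a carboxylesterase that hydrolyzes ester and amide drugs, measured 235, 255, 312 and 170 at 6 months and 29.2, 38.7, 16.3 and 56.5 at 24 months. The old animals lay below every young one. Only 1 of the 4 was above background, so the fitted 5.17-fold fall rests largely on signal below the bound (log2 difference -2.37 ± 0.31, adjusted p = 0.00513, kept in all 8 refits). The animals of 12 and 18 months measured 85.4 to 143 and 53 to 177, the latter overlapping both groups. The neighbouring family member Ces2a fell 1.23-fold (4710 to 5190 against 3718 to 4408, adjusted p = 0.0302) and the aldo-keto reductase Akr1c12 1.21-fold (adjusted p = 0.0409). These 3 were the only ones called among 69 phase I enzymes other than cytochrome P450s (0.665% of all genes fell), whose median was -0.05.

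Of 64 measured cytochrome P450s, the haem enzymes of oxidative drug metabolism, 2 fell and 0 rose, beside 0.665% and 0.616% of all genes, and the median was -0.03 beside -0.0071. Cyp2j6 measured 353, 375, 444 and 379 against 205, 246, 233 and 295 (1.56-fold lower, adjusted p = 0.0103, kept in all 8 refits). Cyp4a12a, a male-predominant fatty acid hydroxylase, fell 1.66-fold from 4893 to 5683 to 2639 to 3589 (adjusted p = 0.0302). The main drug-metabolizing isoforms did not pass. Cyp3a11 lay at 11848 to 13202 and 12380 to 12802 and Cyp2e1 at 12891 to 13659 and 12891 to 13202. Quantile normalization gives every array the same set of values, so that 12891 and 13202 recur between groups and genes. For genes this bright it leaves little room for a difference, and the values of these 2 cannot decide whether their levels changed. Cyp1a2 was 5282 to 7410 against 3903 to 5243, without overlap (log2 difference -0.53, adjusted p = 0.101), and Cyp2c29 was 7410 to 8859 against 8892 to 9734 (0.18, adjusted p = 0.132). Cyp2b10, the marker of activation by the receptor CAR, overlapped (54.8 to 188 against 34.1 to 161), as did Cyp4a14, a target of PPARalpha (498 to 1259 against 1038 to 4269), and Cyp7a1, which starts bile acid synthesis from cholesterol (236 to 985 against 392 to 788).

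Among 69 phase II conjugating enzymes 4 fell and 0 rose, beside 0.665% and 0.616% of all genes. Their median was -0.10, beside -0.0071 over all genes and -0.029 over those above background on 4 or more arrays. Ugt2b38, a glucuronosyltransferase, measured 786, 754, 864 and 544 against 279, 252, 328 and 219 (2.63-fold lower, adjusted p = 0.0267), and its abundant relative Ugt2b1 8436 to 8978 against 6368 to 7252 (1.27-fold lower, adjusted p = 0.0173). Genes of this family are similar in sequence, and reads of 1 probe set may include relatives. Acsm3, which activates medium-chain acids for conjugation with glycine, fell 1.77-fold from 916, 1020, 1072 and 1070 to 438, 637, 583 and 640 (adjusted p = 0.00513, kept in all 8 refits). Mettl7a1, a methyltransferase-like protein of lipid droplets, fell 1.26-fold (adjusted p = 0.0188).

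**Figure D4:**
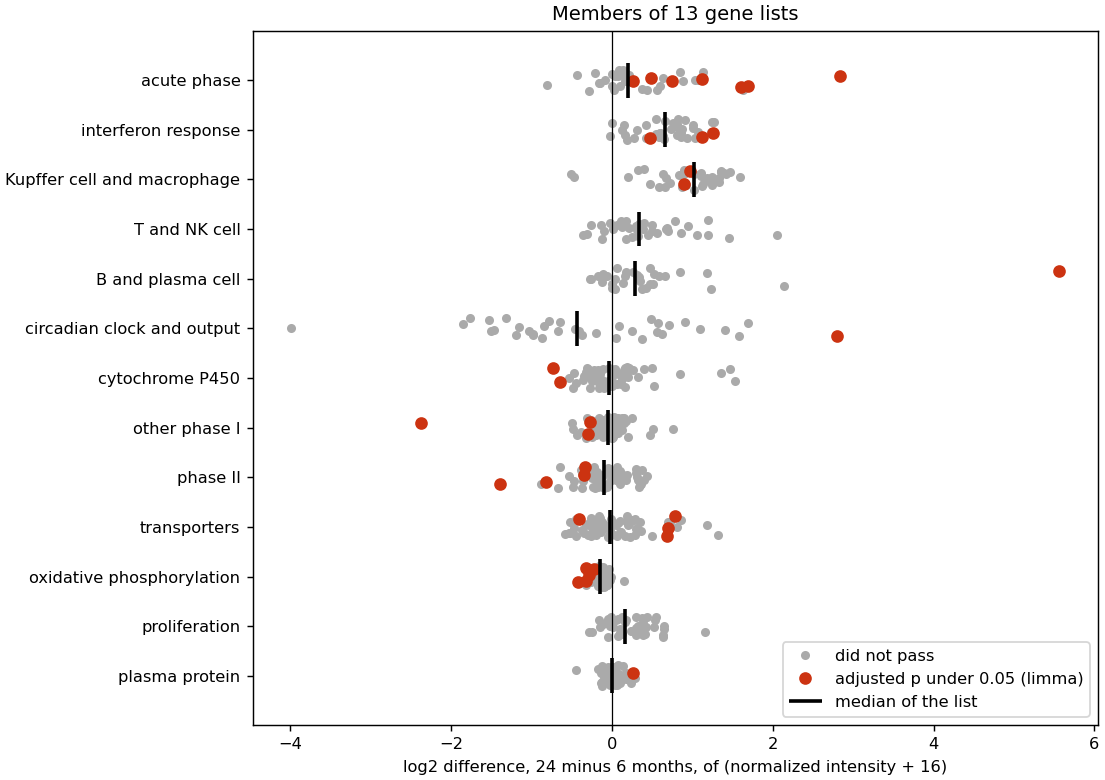
Log2 difference between 24 and 6 months of the members of 13 gene lists; each point is 1 gene, red where it passed the limma test, and the black line is the list's median. Acute phase and interferon genes that passed lie to the right, and drug-metabolizing enzymes and oxidative phosphorylation genes that passed lie to the left of 0.

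Of 72 transporters 3 rose and 1 fell, beside 0.616% and 0.665% of all genes. Abcc9, the sulfonylurea receptor subunit of a potassium channel, was 429, 412, 411 and 413 against 818, 646, 660 and 641 (1.63-fold, adjusted p = 0.0133, kept in all 8 refits). Its call was lost with the median over all probe sets of a gene and under array median scaling. The monocarboxylate carrier Slc16a1 rose 1.61-fold (600 to 826 against 1022 to 1198, adjusted p = 0.0394). Slc22a27, a female-predominant organic anion transporter, passed below background in both groups (9.19 to 14.7 against 22.3 to 39.4, adjusted p = 0.0311). Abcg2, the breast cancer resistance protein that exports drugs into bile, fell 1.33-fold from 1494 to 1647 to 1089 to 1267 (adjusted p = 0.042).

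None of 41 regulators of these genes passed (limma; 9 had an unadjusted p under 0.05). Nr1i3, the receptor CAR, was 438 to 747 against 447 to 701, Ahr 476 to 875 against 494 to 1008, and Nfe2l2, the antioxidant regulator NRF2, 708 to 1070 against 663 to 1048, all overlapping. Nr1i2, the receptor PXR, was 273 to 327 against 181 to 251 and Ppara 1313 to 2286 against 747 to 1202, both without overlap but short of the threshold (adjusted p = 0.188 and 0.0812). Hnf4a, which maintains hepatocyte identity, overlapped (3142 to 4107 against 3076 to 3623).

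Of the calls in these enzyme and transporter lists other than those kept throughout, Ugt2b1 was lost without 6 month animal 16 or 24 month animal 33 (adjusted p up to 0.0542), Mettl7a1 without these or 24 month animal 25 (0.0624), and Slc22a27 without 6 month animals 11, 16 or 21 or 24 month animals 25 or 29 (0.0819). Without any of 6 month animals 16 or 21 or 24 month animals 25, 29 or 33, Ces2a (0.0933), Akr1c12 (0.105), Cyp4a12a (0.0925), Slc16a1 (0.107) and Abcg2 (0.121) were lost, the values being the highest adjusted p of each gene over the refits. The same held for Ces2a without 6 month animal 2, for Cyp4a12a and Slc16a1 without 6 month animal 11, and for Akr1c12 and Abcg2 without either. Ugt2b38 was lost without 6 month animals 2, 11 or 16 or 24 month animals 25, 29 or 33 (0.0832). Without 24 month animal 34 the falls numbered 5 P450s, 5 other phase I and 11 phase II enzymes, in a refit in which 553 of all genes passed.

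Genes with higher levels in male than in female liver lay lower at 24 months. Of 27 measured, 4 fell (Ugt2b38, Cyp4a12a, Ugt2b1 and C9) and 0 rose, beside 0.665% and 0.616% of all genes. Of the 27, 22 were negative and the median was -0.24 beside -0.0071 over all genes. Wholly below the 6 month values lay 11 of the 27, beside 5.44% of all genes. Hsd3b5, a steroid-metabolizing enzyme of male liver, was 4739 to 5268 against 2955 to 3661 without overlap and did not pass (adjusted p = 0.167). Without 6 month animal 16 or 24 month animal 33, 0 members passed, and 1 or 2 without each of the others apart from 24 month animal 34. Of 30 female-predominant genes Slc22a27 passed, and Cyp2b9, named after its values were seen, was 12.8 to 34 against 27.4 to 146 (adjusted p = 0.162). Ghr, the growth hormone receptor, fell 1.17-fold (6160 to 6605 against 5053 to 5810, adjusted p = 0.042), while the growth hormone target Igf1 lay at 4251 to 4620 and 4467 to 4815.

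In bile acid metabolism 1 of 30 measured genes rose and 1 fell, beside 0.616% and 0.665% of all genes. Fgfr4, the hepatocyte receptor for the gut hormone FGF15, rose 1.53-fold from 278, 226, 229 and 249 to 358, 364, 412 and 402 (limma adjusted p = 0.00513, kept in all 8 refits). Its call was lost with the median over all probe sets of a gene. Amacr, a racemase of side-chain oxidation, fell 1.23-fold (limma adjusted p = 0.0197). In lipid synthesis, Fasn, the fatty acid synthase, rose 1.67-fold (1188 to 1494 against 2009 to 2745, limma adjusted p = 0.0409) and Acly, which supplies its acetyl-CoA, 1.45-fold (adjusted p = 0.0453). They were 2 of 47 list members, beside 0.616% of all genes that rose, and the list median was -0.04. Cidea, a lipid droplet protein, was 0 to 40.3 at 6 months, below background, against 78.8 to 193 at 24 months, at least 2.36-fold higher but short of the threshold (adjusted p = 0.117). None of 24 cholesterol synthesis genes passed (limma; 10 had an unadjusted p under 0.05), 20 were positive and the median was 0.25.

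Of 44 targets of PPARalpha, the receptor that drives fatty acid oxidation, 37 were negative with a median of -0.18 beside -0.0071 over all genes. By the test 2 fell, beside 0.665% of all genes. The carnitine-acylcarnitine carrier Slc25a20 fell 1.29-fold (adjusted p = 0.0312) and the transcription factor Creb3l3 1.31-fold (adjusted p = 0.0311). Angptl4, an inhibitor of lipoprotein lipase, was 920, 1443, 1105 and 1053 against 330, 452, 459 and 448, without overlap, and did not pass (adjusted p = 0.0715). Ppargc1b, the coactivator PGC-1beta of mitochondrial and lipogenic genes, fell 3.32-fold from 193, 216, 279 and 334 to 46.5, 63.6, 59.9 and 92.3, the first of these below background (adjusted p = 0.0374).

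Of 49 genes of oxidative phosphorylation 5 fell (Ndufb3, Sdhb, Ndufs4, Uqcrc2 and Cyc1), beside 0.665% of all genes, and 0 rose. Of the 49, 48 were negative, and the median was -0.15 beside -0.0071 over all genes. Uqcrc2, a core subunit of complex III, measured 3926, 4094, 3910 and 4074 against 3116, 3474, 3092 and 3488 (1.22-fold lower, adjusted p = 0.0174). Ndufb3 and Ndufs4 of complex I fell 1.34-fold and 1.25-fold, Sdhb of complex II 1.25-fold and Cyc1 of complex III 1.17-fold, all without overlap. The list median stayed between -0.10 and -0.17 in the 8 refits that left out an animal and was -0.41 under array median scaling, where 0 members passed (limma). Under that scaling the median over all genes was -0.051, and the bright genes Ambp and Hp turned from rises to -0.14 and -0.10. The -0.41 is therefore no measure of a stronger fall of this list. The count of calls was 1 without 6 month animals 11 or 16 or 24 month animals 25 or 33, 2 or 3 without 6 month animals 21 or 2, and 8 without 24 month animal 34 (553 over all genes). In carbohydrate and nitrogen metabolism 1 of 35 and 1 of 50 measured genes fell, beside 0.665% of all genes, and 0 rose. They were the glycolytic Pgk1, 1.12-fold lower (limma adjusted p = 0.0409), and the urea cycle enzyme Otc, 1.23-fold lower (limma adjusted p = 0.0352). Over the alternative settings the difference of Pgk1 came as near 0 as -0.060.

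Other nuclear genes of mitochondria, taken as families by symbol after their values were seen, leaned the same way. Of 76 measured mitochondrial ribosomal protein genes (Mrpl and Mrps), which build the ribosome that translates mitochondrial messages, 8 fell and 0 rose, beside 0.665% and 0.616% of all genes. Of the 76, 72 were negative, with a median of -0.19 beside -0.0071 over all genes. Mrpl12 measured 1281, 1298, 1299 and 1280 at 6 months and 874, 1108, 1032 and 1048 at 24 months (1.27-fold lower, adjusted p = 0.0223), and Mrpl20 596, 644, 561 and 518 against 387, 469, 411 and 449 (1.34-fold lower, adjusted p = 0.0189). In both the groups did not overlap, and animal 25 was the lowest. Mrpl11, Mrpl41, Mrpl47, Mrpl57, Mrps7 and Mrps35 fell 1.24-fold to 1.33-fold on the probe sets used. With the median over all probe sets of a gene the calls of Mrpl11, Mrpl47 and Mrpl57 were lost. Over the alternative settings the differences of Mrpl11 and Mrpl47 came as near 0 as -0.029 and -0.020. Of the other families, 42 of 44 complex I genes (Nduf), 24 of 25 cytochrome c oxidase genes (Cox), all 17 ATP synthase genes (Atp5) and 19 of 23 import genes (Timm and Tomm) were negative, of which 3, 1, 2 and 2 fell. Coq3, a methyltransferase of ubiquinone synthesis, fell from 335, 372, 309 and 352 to 176, 252, 203 and 217, and the complex I assembly factor Ndufaf6 and the mitochondrial ribosome GTPase Mtg1 fell 1.36-fold and 1.35-fold; all 3 kept their calls in all 8 refits. The count of ribosomal protein genes that fell was 0 without 24 month animal 33, 2, 3 and 3 without 6 month animals 16 and 11 and 24 month animal 25, 5 or 4 without 6 month animals 2 or 21, 6 without 24 month animal 29 and 13 without 24 month animal 34 (553 calls over all genes). It was 0 under array median scaling, where 74 of 76 were negative and the median over all genes was -0.051.

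**Figure D5:**
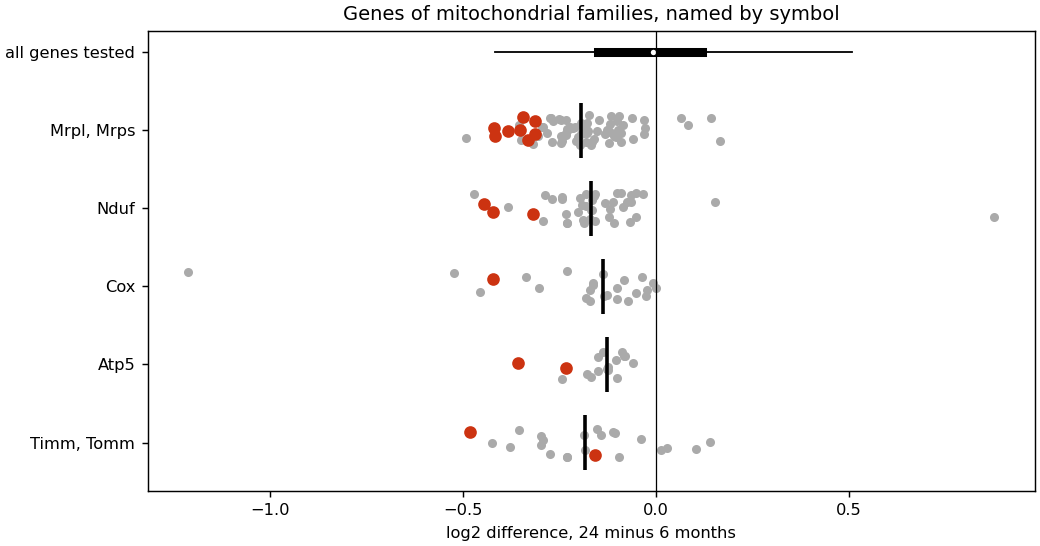
Log2 difference between 24 and 6 months of genes of 5 mitochondrial families; each point is 1 gene, red where it passed the limma test, and the distribution of all genes tested is drawn beside them (line 5th to 95th percentile, thick bar 25th to 75th, dot median). Most points lie left of 0, 72 of 76 for the mitochondrial ribosomal proteins.

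Of these metabolic calls, Uqcrc2 was lost only without 24 month animal 33 (adjusted p = 0.0573), and Amacr without 6 month animals 16 or 21 or 24 month animals 25 or 33 (up to 0.058). Ghr, Fasn, Pgk1 and Otc were lost without any animal but 24 month animal 34, with adjusted p up to 0.121, 0.109, 0.12 and 0.104, and Acly without any but 24 month animal 25 (0.116). Slc25a20, Creb3l3 and Ppargc1b were lost without 6 month animals 11, 16 or 21 or 24 month animals 25 or 33, Creb3l3 and Ppargc1b also without 24 month animal 29 (up to 0.0981, 0.0933 and 0.104).

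Noct was the gene of the circadian list that passed. It encodes nocturnin, a phosphatase of NADPH whose liver transcript peaks at night, and measured 238, 119, 412 and 296 at 6 months and 1902, 1934, 1820 and 1557 at 24 months. The old animals were close together and far above the young ones, a 6.98-fold rise (log2 difference 2.80 ± 0.45, adjusted p = 0.0146; 0.0506 without 24 month animal 33, the only refit that ended the call). At 12 and 18 months the values were 369 to 2017 and 477 to 971. Of the 36 measured members 1 passed, beside 1.28% of all genes, while 19 had an unadjusted p under 0.05, 15 were positive and 21 negative.

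Clock genes varied widely among the young animals. Dbp, a clock output activator, measured 260, 872, 2877 and 2217 in 6 month animals 2, 11, 16 and 21 and 35.3, 13, 38.6 and 296 at 24 months (log2 difference -3.98 ± 1.27, adjusted p = 0.136), so that animal 34 overlapped the lowest young animal. Arntl, the activator BMAL1, ran the other way, at 150, 105, 9.42 and 34.8 against 235, 296, 228 and 132 (adjusted p = 0.214). Its partner Npas2 was 0.295 to 26.6 against 27 to 99.8, and Nfil3, which opposes Dbp, 58.4 to 307 against 297 to 513. Nr1d2 (1273 to 2201 against 457 to 1250) and Tef (378 to 1150 against 165 to 350) lay lower in every old animal, while Nr1d1, Per2 and Per3 overlapped; none of these passed. The time of day at which each animal was killed is not given in the sources used here, and its part in these values was not tested.

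The E-box CACGTG, to which the clock activators bind, was searched on both strands: 7 of 29 circadian genes with a promoter window held it (Per1, Cry1, Tef, Bhlhe41, Ciart, Lonrf3 and Tspan4), and 8.09% of all genes. The D-box form TTANGTAA, bound by Dbp, Tef and Nfil3, occurred in Per3 among the 29 and in 2.72% of all genes. The window of Noct, chr3:51224197-51224496 (plus strand), is shown because Noct is the clock gene that rose; neither form occurs in these 300 letters, so none is in capitals.
Noct: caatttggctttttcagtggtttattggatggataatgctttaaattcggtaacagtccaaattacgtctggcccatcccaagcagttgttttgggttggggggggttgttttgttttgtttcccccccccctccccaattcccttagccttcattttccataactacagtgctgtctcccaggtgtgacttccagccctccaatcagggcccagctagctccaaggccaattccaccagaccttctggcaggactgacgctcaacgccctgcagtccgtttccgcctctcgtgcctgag

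Structural and vascular cell genes gave few calls. Of all genes, 0.616% rose. Mmp14, a membrane matrix metalloproteinase that activates MMP2, rose 1.83-fold from 269, 228, 220 and 248 to 586, 408, 466 and 380 (adjusted p = 0.00513, kept in all 8 refits), 1 of 46 genes of stellate cells and matrix, whose median was 0.31 (0.16 without animal 25). The collagens Col1a1 and Col3a1 differed by 0.87 and 0.59 and the myofibroblast actin Acta2 by -0.10, and none passed. Of 33 endothelial genes Gata4 and Sox18, both transcription factors of sinusoidal or vascular endothelium, rose 1.41-fold and 1.39-fold (adjusted p = 0.042 each); the calls were lost without any of the 4 young animals or 24 month animals 25 or 33, and that of Gata4 also without 24 month animal 29 (up to 0.126 and 0.105).

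In the unfolded protein response list of 42 genes Creb3l3 fell, as given above, and Atf3, a stress-induced transcription factor, rose below background in both groups (6.13 to 13.8 against 17.3 to 34.9, limma adjusted p = 0.04). Of all genes, 0.665% fell and 0.616% rose. Cdkn1a, the p53 target p21, was 0.43 to 26.3 against 43.8 to 64.3 without overlap (adjusted p = 0.26). Cdkn2a, which encodes p16, lay below background at 0 to 12.1 and 1.89 to 7.95, and the fetal liver marker Afp at 6.04 to 24.3 and 7.44 to 25.6. No member passed of the lists for p53 and senescence (5 of 36 at an unadjusted p under 0.05, limma), heat shock (4 of 27), NRF2 (8 of 36), tumour and fetal genes (6 of 31), cholangiocytes (4 of 23), periportal hepatocytes (7 of 23), ribosomal proteins (6 of 33) or erythroid cells (6 of 16). Slc13a3, a dicarboxylate carrier of perivenous hepatocytes, rose 1.44-fold (adjusted p = 0.0417), and the iron transporter Slc11a2 1.6-fold (adjusted p = 0.0288). Ambp, the precursor of alpha-1-microglobulin and bikunin, rose 1.20-fold (adjusted p = 0.0208), turning to -0.14 under array median scaling. Genes of adipose tissue, muscle and gut were high in 6 month animal 11 (summed intensity 20582 against 1787 to 2337 in the other young animals and 1425 to 1905 in the old), and none of the 29 passed (4 at an unadjusted p under 0.05), nor of 21 pancreas genes (1). The calls of Atf3 and Slc11a2 were lost without 6 month animals 16 or 21 or 24 month animals 25, 29 or 33 and without 6 month animal 2 or 11 respectively, those of Slc13a3 without any animal but 24 month animal 34, and that of Ambp without 6 month animal 16 or 24 month animals 25 or 33 (up to 0.117, 0.0898, 0.113 and 0.0692).

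The remaining large rises were in genes of varied function. Serpina7, thyroxine-binding globulin, measured 500, 639, 758 and 670 at 6 months and 2924, 2554, 2008 and 1649 at 24 months, 3.45-fold higher without overlap (adjusted p = 0.0227). Acnat2, which conjugates fatty acids with amino acids, rose (26.1 to 62.2, above background in 1 of 4 young animals, against 130 to 228, adjusted p = 0.0182). Atp11a, a phospholipid flippase, rose 3.04-fold (75.5 to 142 against 229 to 447, adjusted p = 0.0294). Cdh19, a cadherin, went from 0, 0, 3.72 and 0 to 24.9, 25.1, 42.6 and 67.3 (adjusted p = 0.00774, kept in all 8 refits), and Nebl, an actin-binding protein, from 0 to 16.9 to 45.5 to 91.6 (adjusted p = 0.0197). Mmd2 (12.6 to 31.6 against 60.2 to 175) rose at least 1.87-fold, and Gdpd5, a glycerophosphodiesterase, rose from 0 in all young animals to 7.51 to 42.2, below background in both groups. Among abundant lipid genes noted after their values were seen, Pltp, the phospholipid transfer protein, rose 1.98-fold (797 to 1343 against 1629 to 2227) and Tm6sf2, needed for loading lipid onto VLDL, 1.65-fold.

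Among the large falls, Gpcpd1, which breaks down glycerophosphocholine, measured 982, 1785, 1937 and 1787 against 380, 650, 797 and 525 (2.72-fold lower, adjusted p = 0.0401), and its 4 probe sets were all negative. Rcan2, a regulator of calcineurin, fell (82.7 to 144 against 25.8 to 58.4, above background in 1 of 4 old animals). Vapb, a tether at endoplasmic reticulum contact sites, fell 1.94-fold (332 to 434 against 121 to 270) on the probe set used. With the median over all probe sets of a gene the calls of Vapb, Gpcpd1 and Rcan2 were lost. Over the alternative settings the difference of Vapb came as near 0 as -0.061. Ndst3, a heparan sulfate sulfotransferase, and Jsrp1, a muscle reticulum protein, fell from 32.6 to 56.3 and 25.7 to 69.0 at 6 months to 0 to 14.4 and 0 to 4.89. Zbed5, Chst7, Rnf222, Wfikkn1 and Myt1 passed with log2 differences of -1.46 to -0.85 while lying below background in both groups, so that their falls describe signal near the limit of the array.

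Acnat2, Nebl and Wfikkn1 lost their calls without 6 month animal 16 or 24 month animal 33 (adjusted p up to 0.0604), and Tm6sf2 also without 24 month animal 29 (0.0778). Serpina7, Mmd2, Atp11a, Gdpd5, Pltp, Gpcpd1, Rcan2, Vapb, Ndst3, Jsrp1, Zbed5, Chst7, Rnf222 and Myt1 each lost theirs in 5 or more of the 8 refits, all of them without 24 month animals 29 or 33, with adjusted p up to 0.115.

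At the ages between, the genes called at 24 months mostly lay between the 6 and 24 month means: of the 112 that rose, 98 did at 12 months and 99 at 18 months, and of the 121 that fell 105 and 112. The median difference from 6 months of the genes that rose was 0.23 at 12, 0.38 at 18 and 0.65 at 24 months, and of those that fell -0.12, -0.19 and -0.41. These contrasts share the 6 month animals, and the genes were chosen for their 24 month value, so the order is a description. By the same fit 0 genes passed at 12 against 6 months (limma; 1264 at an unadjusted p under 0.05) and 20 (0.11% of genes; 15 rose, 0.0824%, and 5 fell, 0.0275%) at 18 against 6 months, while 0 passed at 24 against 18 months (1733) and 39 (0.214%; 17 rose, 0.0934%, and 22 fell, 0.121%) at 24 against 12 months. Fgl1, for instance, measured 1977 to 2910 at 12 and 3747 to 5629 at 18 months, and Ugt2b38 415 to 643 and 180 to 521.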

How the data were processed

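RNA from 28 mouse livers, 1 mouse per sample per the labels, was measured on Affymetrix whole-genome mouse arrays. The authors deposited 1 linear intensity per probe set, some below 0; which software made them, and how it summarised and scaled, is not given in the sources used here. Quantile normalization was applied to the 16 C57BL/6 arrays without 64 control probe sets, negative values were raised to 0, and 16 was added before taking log2. The background bound of 52.6 is the size under which 95% of the negative normalized values fell. Of 45101 probe sets, 34945 carry 1 symbol, 932 several and 9160 none; a gene was read from its 1-symbol probe set with the greatest mean on all 28 arrays (18193 genes). limma 3.58.1 (lmFit and eBayes, R 4.3.3) fitted a mean for each of the 4 ages and tested 24 against 6 months two-sided, with Benjamini-Hochberg adjustment over all genes; the fit was tested on simulated data. Folds written "at least" apply where no array of the dimmer group exceeded the bound and set the brighter group's mean against it.

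Named genes are the 15 largest rises and 15 largest falls past the threshold without overlap (predicted names skipped), the called members of the gene lists and a set of fixed genes; others are said to be chosen after their values were seen. Of the falls, 1 is not reported here. The members and lists were chosen with earlier results of these data known. Alternatives were other scalings, pseudocounts, probe set choices, variance models and covariates, and leaving out each animal. Promoter windows come from RefSeq (GRCm38.p6). The number of arrays limits the precision, and no array duplicated another (0 identical pairs).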

Additional observations from a re-analysis of the deposited data

Results flagged for a closer look

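In 386 groups of 4 values checked, 20 held an animal far from the other 3, where chance gives about 1 in 20. Values are log2(intensity + 16). At 6 months animal 2 stood low for Gpcpd1 (9.96) and high for Abcc9 (8.80) and Ghr (12.7), animal 11 high for Nr1i2 (8.42) and low for Hnf4a (11.6) and Cdkn1a (4.04), and animal 16 high for Cdh19 (4.30) and Cyp4a14 (10.3) and low for Il6st (9.22). At 24 months animal 25 stood high for Abcc9 (9.70) and Saa3 (9.97) and low for Angptl4 (8.43) and Mrpl47 (7.87).

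Among medians of gene lists, 6 month animal 2 was low for transporters (7.09) and for lipogenesis and lipid droplets (9.0). Animal 16 was low for bile acid (10.9) and for amino acid and urea cycle genes (11.3), and animal 21 was low for NRF2 and antioxidant genes (10.6). Animal 11 was high for genes of adipose tissue, muscle and gut (6.78), and 24 month animal 25 for tumour and fetal genes (6.20).

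For 12 of the named genes the 24 month mean also differed from the 12 month mean by the same limma fit, so that their difference from 6 months was not the same at both ages. The log2 differences of 24 minus 12 months were 1.21 for Fgl1, 1.79 for Acnat2, 1.73 for Orm2, 0.32 for Itih4, 0.84 for Slc13a3, 0.64 for Tmem176a and 0.73 for Ndrg1. They were -0.34 for Ugt2b1, -0.49 for Coq3, -0.41 for Gnl3, -0.34 for Nop10 and -0.35 for Mrpl41. Adjusted p lay between 0.00886 (Nop10) and 0.0495 (Ndrg1).

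Outside the genes tested, 30 of 10092 probe sets that carry no symbol or several passed between 24 and 6 months, 21 higher and 9 lower, and 27 of the 30 were above background.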

How the results depend on the processing

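All 233 differences kept their sign in each of the 8 refits that left out an animal, which groups without overlap all but ensure. The count of genes that differed between 24 and 6 months, rose and fell together, was 233 (112 rose and 121 fell) and ranged from 42 to 553 over these refits, rises from 26 to 279 and falls from 16 to 274. It was 70 (36 rose, 34 fell) under array median scaling, 8 (3 and 5) and 2 (1 and 1) with the 8 arrays fitted alone, normalized anew or as in the 16, 152 with robust eBayes (70 fell), 641 (306 and 335) with array weights, 362 (185 rose) among 9712 genes above the bound on 4 or more arrays, and 99 (43 and 56) with array brightness as a covariate. It was 0 rises and 0 falls with the Gapdh ratio as a covariate and against a minimum of 1.5-fold (lowest adjusted p 0.0605 and 0.328, limma; 2321 and 128 genes at an unadjusted p under 0.05). The calls shared with the reported 233 were 66 under array median scaling, 68 with brightness, 140 with the median of all probe sets of a gene and all 233 with array weights. Under trimmed mean scaling, all 28 arrays normalized together, pseudocounts of 1 and 64, other probe set choices and a mean-variance trend the count stayed between 169 and 328. The log2 difference of Ambp turned to -0.14 under array median and to -0.0097 under trimmed mean scaling, that of Hp to -0.10 under array median scaling, and that of Mtf1 to 0.10 with the median of its probe sets; the cause was not tested. No paired analysis was possible because the animals of 6 and 24 months share no number in the labels. With 4 arrays a group the number of arrays limits the precision, and 10460 of 18193 genes were above background on any of the 8 arrays.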

Other observations

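Further genes that kept their call in every refit that left out 1 animal, chosen after their values were seen, belong to no list. Tspan14, a tetraspanin partner of the sheddase ADAM10, rose 1.58-fold with a log2 level of 6.84 ± 0.11 (SD, n = 4) at 6 months and 7.50 ± 0.12 (n = 4) at 24 months (limma adjusted p = 0.00513). Nt5c2, a cytosolic nucleotidase that acts on purine nucleotides, rose 1.45-fold, and Emc7, of the complex that inserts proteins into the endoplasmic reticulum membrane, fell 1.15-fold (limma adjusted p = 0.00531 and 0.0102). Vgll3, a transcription cofactor, was below background in both groups and differed by 0.70. It and Mtg1 were the 2 genes that passed when the 8 arrays were fitted without the other ages. The call of Vgll3 was lost with the median over all probe sets of a gene.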
